A study of Mus musculus with 4 samples.

Results

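The Zfp genes examined here are mouse genes whose symbol is Zfp followed only by digits, with Zfp36 left out, and which occur in the deposited gene expression table. There were 165 such genes among the 7399 genes of that table. A gene enters the table only with at least 1 listed differential m6A peak, so having such a peak is no finding about these genes, and only the number, place, strength, direction and size of their peaks are described. Across the 2 peak lists 316 Zfp symbols had a peak, of which 151 do not occur in the table and were not analysed further.

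The data are 4 RNA libraries from bone-marrow-derived macrophages of C57BL/6 mice. Marrow cells were grown with M-CSF, the growth factor that makes them macrophages, for 7 days and then cultured for 24 h with MC38, a mouse colon carcinoma line. Both genotypes carried floxed Mettl3 alleles (Mettl3fl/fl, here WT), and the conditional knockout (cKO) also carried LysM-cre, a Cre recombinase under a promoter active in myeloid cells. Each genotype has 1 library made after immunoprecipitation with an antibody to m6A (IP) and 1 made without that step (input). The labels do not give the number of animals. Each group has 1 library, so no genotype difference has a replicate check, and none was tested here. The p-values and adjusted p-values quoted for such differences are those the authors deposited. Without replicate libraries they cannot take in variation between animals or cultures. Counts and shares at an adjusted p below 0.05 have the same limit. Only the cKO carries Cre, so the loss of Mettl3 and the presence of Cre cannot be told apart.

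N6-methyladenosine (m6A) is a methyl mark that the METTL3 and METTL14 enzyme places on adenosines of messenger RNA, most often in long exons and near stop codons. In m6A sequencing, RNA fragments are pulled down with an antibody, and a peak is a stretch with more IP than input reads. Zfp genes encode C2H2 zinc finger proteins, in which each finger holds a zinc ion with a pair of cysteines and a pair of histidines and reads a few bases of DNA or RNA. Fingers usually follow one another, joined by a short conserved linker, and are commonly encoded together in the last exon. A large subset carries a KRAB domain, which recruits the scaffold protein TRIM28 and, through it, SETDB1, an H3K9 methyltransferase that silences endogenous retroviruses and imprinted loci. Others have no KRAB domain and serve as gene regulators, RNA-binding proteins or enzymes of protein modification.

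A pattern for the KRAB A-box was found in the translated GENCODE coding sequence of 82 Zfp genes and in none of the transcripts of 81. The remaining 2, Zfp469 and Zfp939, had no coding transcript. A missing match does not show that a protein lacks the domain. The median number of C2H2 fingers was 10, with at most 37, and it was 11.5 in genes with the KRAB pattern and 8 in those without. At least 3 fingers were found in 146 genes, and 11 genes had 0 or 1 by this pattern.

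The sequences that an m6A motif search turns on are shown first. They are read from GENCODE M21 transcripts, written 5′ to 3′ on the transcript strand as DNA, with mm10 positions. The capitals mark the motif. The first 4 hold GGACT, the best known m6A motif, in genes whose input averaged 1 FPKM or more. They come from peaks that match one to one between the genotypes and contain this word on the transcript, ranked by the lower of the WT and cKO log2 IP over input, with 1 site per gene. Stronger peaks outside these limits are given with the values. FPKM is a fragment count per transcript length and library size. All of them lie in 3′ UTRs.
Zfp574, chr7:25082914-25082942, plus strand: gggaactcctggGGACTctacctagtagc
Zfp142, chr1:74567107-74567135, minus strand: cgctgggctgctGGACTgcgacatcatgc
Zfp865, chr7:5035841-5035869, plus strand: actcagcacagaGGACTgcgtgaagcctt
Zfp629, chr7:127609363-127609391, minus strand: ctaggggaaggaGGACTgggggtccctta
The log2 IP over input of these peaks, an authors' value per peak as all those from the peak lists, was 8.49 in the WT and 4.31 in the cKO for Zfp574. It was 4.02 and 3.76 for Zfp142, 3.49 and 3.92 for Zfp865, and 3.48 and 3.47 for Zfp629. Zfp574 alone differed by a wide margin between the genotypes, while Zfp865 was higher in the cKO. The 2 Zfp574 values come from different spans, chr7:25082698-25083122 in the WT and chr7:25082848-25083122 in the cKO. Zfp574 is not among the largest falls by the authors' deposited table that are named below.

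The next 3 show the bases that encode the linker between fingers, in genes with the KRAB pattern. They hold AAACC, which has the less specific form of the m6A motif, and each peak holds at least 2 linkers with this word. The 3 sequences are printed because this word was dense in the peaks of KRAB-pattern genes. It was no less dense in the whole coding sequences of those genes. The search for it was added after the data had been seen.
Zfp871, chr17:32775277-32775305, minus strand: cacacgggagagAAACCttatgtgtgtaa
Zfp26, chr9:20437303-20437331, minus strand: cacactggagagAAACCctttgagtgtaa
Zfp945, chr17:22851446-22851474, minus strand: catacaggagagAAACCttacaaatgtag
The peak that covers each site holds 2 such linkers in Zfp871, 5 in Zfp26 and 3 in Zfp945. Its log2 IP over input was 3.23 in the WT and 3.06 in the cKO for Zfp871, 3.68 and 3.05 for Zfp26, and 3.63 and 3.02 for Zfp945. The sites come from peaks that match one to one and hold at least 2 such linkers, in genes averaging 1 FPKM or more. These were ranked by the lower of the WT and cKO values, so their strength in both genotypes follows from the choice. All 3 peaks were lower in the cKO.

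The targeted gene does not check the labels here. Mettl3 is not in the gene expression table, so its input level was not analysed, and it had 2 WT peaks, 4 cKO peaks and no differential peak. Of 10 macrophage markers, 9 had an input value, with Lyz2 (lysozyme) at 3393 FPKM in the WT and 1980 in the cKO, Cd68 at 695 and 634 and Adgre1 (F4/80) at 220 and 162. Their sum was 4591 FPKM in the WT input and 3065 in the cKO input. Of 7 mesenchymal markers, 6 had a value, summing to 109 and 195 FPKM, so that these moved in the opposite way to the macrophage sum. Of 6 MC38 or epithelial markers only Krt19 had one, at 7.05 and 10.8 FPKM, and of 4 lymphoid and 4 neutrophil markers 1 each, Cd79a at 0.97 and 0.42 and S100a8 at 12.3 and 13.7. The part of these markers in the results below was not tested. In bulk RNA, fewer cells of a type and less RNA per cell cannot be told apart. Read totals are not analysed here and the depth stays unknown, and how IP and input were scaled to each other is not given in the sources used here.

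Zfp genes were expressed at low levels and at nearly the same level in both genotypes. Their median mean input was 1.72 FPKM (quartiles 0.887 and 3.12), against 4.85 FPKM in the other genes of the table. The median was 1.16 FPKM in genes with the KRAB pattern and 2.44 FPKM in those without. A mean of at least 1 FPKM was reached by 115 genes and at least 5 FPKM by 21. The lowest was Zfp935, at 0.0144 FPKM in the WT and listed at 0 in the cKO.

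The most abundant was Zfp106, an RNA-binding zinc finger protein, at 25.1 FPKM in the WT input and 25.3 in the cKO input. Zfp91, reported as a ubiquitin ligase of the noncanonical NF-kB pathway, had 16.6 and 18 FPKM. Among genes with the KRAB pattern, Zfp871 led with 14.0 and 14.1 FPKM, followed by Zfp445, which helps to keep genomic imprints, with 11.8 and 12.5. Zfp971 had 10.6 and 12.8 FPKM, but 53.3% of its 50-base words also occur in other genes, most in Zfp968, so that its level is uncertain. The other 5 of the 10 highest were Zfp703 (13.5 and 9.81 FPKM), Zfp740 (9.72 and 10.3), Zfp609 (9.99 and 9.83), Zfp655 (9.31 and 10.4) and Zfp217 (9.63 and 9.48). Zfp217 is known as a chromatin regulator that binds METTL3. Of these 10, Zfp703 was the one whose input differed most between the genotypes.

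Input differences were computed as cKO minus WT on the log2(FPKM + 1) scale, which understates differences of weakly expressed genes, for the 115 genes with a mean of at least 1 FPKM. The median difference was -0.0019, with 56 genes higher and 59 lower in the cKO, and the range was -0.62 to 0.47. On this scale none of these genes was at least 1.5-fold higher in the cKO, against 1.46% of all genes at this level. Only 1 was at least 1.5-fold lower, against 1.66% of all genes of the table at this level. That gene was Zfp994, a KRAB-pattern gene with 2.05 FPKM in the WT and 0.984 in the cKO. With a pseudocount of 0.1 in place of 1, these counts were 1 higher and 3 lower. The next lowest differences were those of Zfp938 (2.59 and 1.63 FPKM, difference -0.45), Zfp703 (-0.42), Zfp983 (-0.37), Zfp281 (8.92 and 6.74 FPKM, -0.36) and Zfp945 (-0.35). Zfp703 encodes a transcriptional corepressor, and Zfp281 a regulator of pluripotency genes. On the other side stood Zfp593 (1.78 and 2.85 FPKM, 0.47), Zfp969 (3.55 and 4.82 FPKM, 0.35), Zfp930 (0.33), Zfp120 (0.32), Zfp691 (0.30) and Zfp869 (0.26). Every 50-base word of Zfp969 also occurs in Zfp968, so its reads cannot be assigned with certainty. The lowest p among Zfp genes by the authors' deposited table of input expression was 0.103, with a q of 1, and 45 of the 7142 other genes with an FPKM value had a p below 0.05.

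**Figure D1:**
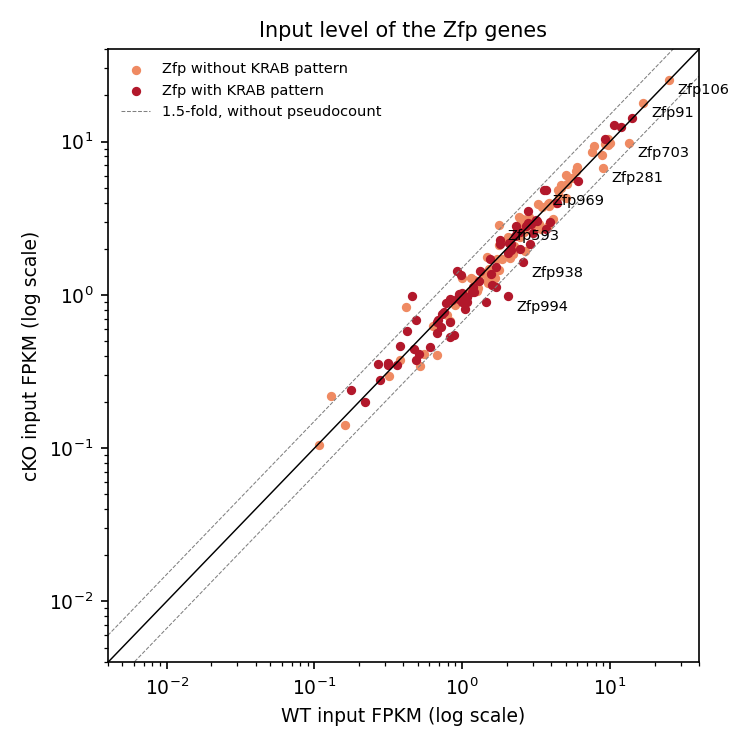
Input FPKM of each Zfp gene in the WT library (x axis) and the cKO library (y axis), both on log scales; 1 point is 1 gene, coloured by the KRAB pattern, and dashed lines mark a 1.5-fold ratio without the pseudocount. The points mostly follow the diagonal. Those below the lower dashed line include Zfp994 (2.05 and 0.984 FPKM) and Zfp938 (2.59 and 1.63). Those above the upper one include Zfp593 (1.78 and 2.85) and, at a low level, Zfp174 (0.418 and 0.839). Zfp935, listed at 0 in the cKO, is not drawn.

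Nearly all Zfp genes had peaks in both genotypes, as did nearly all other genes of the table. The WT list held 535 peaks in 164 Zfp genes, a mean of 3.24 per gene, and the cKO list 587 peaks in all 165, a mean of 3.56. Of the 7234 other genes of the table, 7023 had a WT peak and 7087 a cKO peak, with means of 3.03 and 3.24 per gene. Entry to the table needs a listed differential peak, so these gene counts are no finding about Zfp genes. Zfp969 was the gene with no WT peak. Genes with the KRAB pattern had fewer peaks, 2.62 per gene in the WT and 3.10 in the cKO, than those without, with 3.86 and 4.04. Most peaks were found in Zfp704 (9 WT and 10 cKO peaks), Zfp462, a protein with 34 fingers here (9 and 9), Zfp384 (9 and 7), Zfp451, a SUMO ligase (7 and 9), and Zfp507 (8 and 8).

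Peaks of Zfp genes were stronger than those of the other genes. The median log2 IP over input was 1.47 in WT peaks and 1.5 in cKO peaks, against 1.16 and 1.25 in the other genes. A log2 of at least 2, which is a 4-fold enrichment, was reached by 35.7% of their WT peaks (exact 95% Clopper-Pearson interval 31.6 to 39.9) and 30.5% of their cKO peaks (26.8 to 34.4). In the other genes these shares were 19.7% (19.1 to 20.2) and 18.1% (17.6 to 18.6). Such intervals cover counting error only and treat peaks of 1 gene as separate. Genes with the KRAB pattern had a median of 1.69 (WT) and 1.67 (cKO), and those without 1.36 and 1.45. Below 1 FPKM the order was the opposite, at 2.08 (WT) and 1.82 (cKO) with the pattern and 2.68 and 2.06 without, and from 1 to 2 FPKM the WT medians were close, at 1.37 and 1.34.

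Weakly expressed genes had stronger peaks in both sets. Below 1 FPKM the WT median was 2.13 in Zfp genes and 1.73 in other genes. From 1 to 2 FPKM it was 1.36 and 1.26, from 2 to 5 FPKM 1.28 and 1.09, and from 5 FPKM upward 1.19 and 1.06. Zfp genes thus had the higher median in each of the 4 ranges. In the range from 5 FPKM upward, 27.1% of WT Zfp peaks (17.2 to 39.1) and 14.2% of other WT peaks (13.5 to 14.9) reached a log2 of 2. By number of fingers, the WT median was 1.09 in the 17 genes with up to 2 fingers, 1.32 in the 35 with 3 to 7, 1.55 in the 62 with 8 to 12 and 1.61 in the 49 with 13 or more. The cKO medians were 1.18, 1.59, 1.5 and 1.55, with no further rise beyond 3 to 7 fingers. The median level fell over the same classes, at 2.91, 2.16, 1.87 and 1.03 FPKM, and the part of each was not tested.

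**Figure D2:**
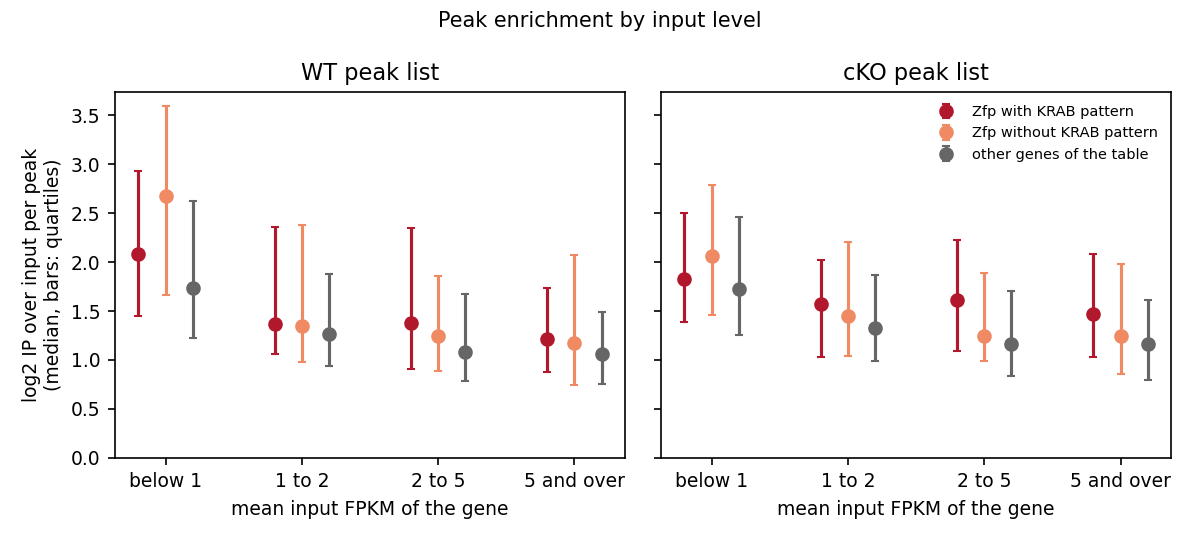
Log2 IP over input per peak (y axis; points are medians over peaks, bars are quartiles) by the mean input FPKM of the gene (x axis), in the WT list (left) and the cKO list (right), for Zfp genes with and without the KRAB pattern and the other genes of the table. In the WT list the medians of the other genes run from 1.73 below 1 FPKM to 1.06 from 5 FPKM upward, and both Zfp classes lie above them in each range.

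The strongest peaks belonged to a few genes. Those named here come from genes with a mean of at least 1 FPKM. In the WT list they were Zfp574 in the 3′ UTR at a log2 IP over input of 8.49, Zfp64 in the 3′ UTR at 5.16, Zfp639 in exonic sequence at 4.68, Zfp451 in exonic sequence at 4.35, Zfp503 in the 3′ UTR at 4.30 and Zfp326 in the 3′ UTR at 4.05. Zfp326 belongs to a complex that links transcript elongation to splicing. In the cKO list they were Zfp64 at 7.61, Zfp277 at 7.20, Zfp639 at 4.38, Zfp574 at 4.31, Zfp503 at 4.24 and Zfp451 at 4.15. Of these genes, Zfp639, Zfp503, Zfp574, Zfp451 and Zfp64 appear in both lists. The values of Zfp639 and Zfp503 were close in the 2 genotypes. The 3 peaks above 7 had the highest adjusted p-values among the 6 named of their list, in the authors' peak lists as deposited, with 3.76e-05 for Zfp574 in the WT, and 0.000231 for Zfp64 and 0.000456 for Zfp277 in the cKO.

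By the authors' region names, 60.6% of WT peaks in Zfp genes (56.3 to 64.7) lay in 3′ UTRs, 23.6% in other exonic sequence, 12.5% in 5′ UTRs, 2.62% in introns and 0.561% in exons of noncoding RNAs. The cKO shares were 60.5%, 22.7%, 12.4%, 4.09% and 0.341%. In the other genes the WT shares were 57.5%, 23.7%, 9.80%, 5.24% and 3.61%. The regions were thus used in similar proportions, with more 5′ UTR and fewer intronic peaks in the Zfp genes. The exonic peaks stood out by strength, with a WT median log2 of 1.39 against 0.87 in exonic peaks of other genes.

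Position was also read on the transcript that the authors name for each peak, which could be done for 517 WT and 556 cKO peaks of Zfp genes. The centre of the peak lay in the last exon for 71.8% of WT peaks (67.7 to 75.6) against 59.1% (58.4 to 59.8) in other genes. It did so for 81.2% (75.3 to 86.3) in genes with the KRAB pattern and for 64.7% (59.0 to 70.1) in those without. In the cKO list the shares were 72.7% in Zfp genes, 85.8% in those with the KRAB pattern and 59.1% in other genes. The exon at the centre had a median length of 2267 bases in Zfp genes and 926 bases in other genes of the WT list.

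Zfp peaks spread out around the stop codon rather than gathering just past it. A stop codon lay inside 22.7% of WT peaks (19.1 to 26.6) against 18.4% in other genes. The centre, however, was within 400 bases of the stop codon in 20.2% (16.8 to 23.9) against 27.0% (26.4 to 27.7). Placed WT peaks had a median exonic length of 375 bases in Zfp genes and 300 in other genes. The part of peak length in these shares was not tested. The bin of 250 bases just past the stop codon held 7.24% of WT Zfp peaks and 11.6% of other WT peaks, while the bin from 750 to 500 bases before it held 7.63% and 4.79%. Peaks centred within 400 bases were the strongest, with a WT median log2 of 1.95 in Zfp genes and 1.27 in other genes. Those further upstream had 1.59 and 1.04, and those further downstream 1.31 and 1.17.

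**Figure D3:**
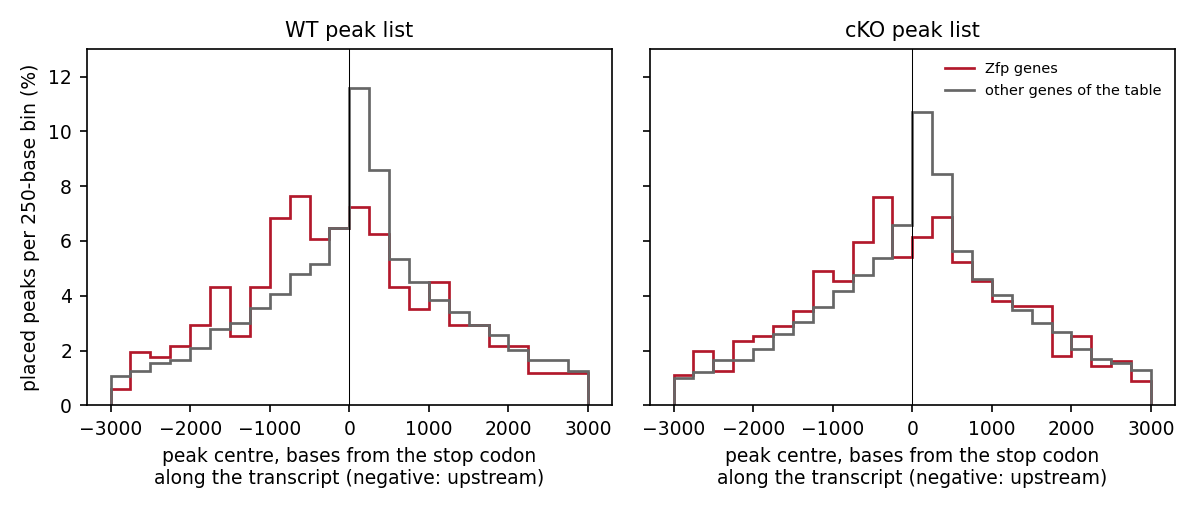
Share of placed peaks (y axis, percent per bin of 250 bases) by the distance of the peak centre from the stop codon along the transcript (x axis, bases, negative upstream), in the WT list (left) and the cKO list (right). Other genes (grey) peak just past the stop codon at 11.6% in the WT list, where Zfp genes (red) have 7.24%, and Zfp genes lie above them from 1250 to 250 bases upstream.

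The motif GGACN, with any last base except G, was sought on the transcript strand of the placed peaks. At least 1 was present in 61.3% of WT Zfp peaks (57.0 to 65.5) and 61.9% of other WT peaks. The share was 54.3% (47.3 to 61.2) in genes with the KRAB pattern and 66.7% (61.1 to 72.0) in those without. Per kb of peak sequence there were 3.07 in Zfp genes, 2.23 in those with the KRAB pattern, 3.58 in those without and 3.89 in other genes. Peaks at a log2 of at least 2 held 3.23 per kb in Zfp genes and 4.33 in other genes. With all 18 words of the less specific m6A motif, in which other bases may stand around the central AC, the densities were alike, at 21.2 per kb in Zfp genes and 21.1 in other genes.

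AAACC, 1 of these 18 words, occurred 3.73 times per kb in WT peaks of KRAB-pattern genes, 1.43 in those without the pattern and 1.12 in other genes. The whole coding sequences held 4.70 per kb in KRAB-pattern genes and 1.57 in those without. The word was thus no denser in the peaks, many of which also hold UTR sequence, than in the coding sequence at large. In the coding sequences of 163 Zfp genes, 684 linkers of the conserved form were found, of which 335 (49.0%) contained AAACC. These were 293 of 523 linkers (56.0%) in KRAB-pattern genes and 42 of 161 (26.1%) in the others. Linkers held 43.5% of all AAACC words in the coding sequence of KRAB-pattern genes. This describes the sequence under the peaks, and which adenosine was methylated is not measured by these data.

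Peaks of Zfp genes were shared between the genotypes about as often as those of other genes. A cKO peak overlapped 76.1% (72.2 to 79.6) of the WT peaks, against 74.1% in other genes, while 76.7% (73.0 to 80.0) of the cKO peaks had a WT partner, against 72.2%. When the overlap had to cover 50% of both peaks, the WT share was 47.3%, against 49.1% in other genes. The shared WT peaks had a median log2 of 1.70 and the others 1.14.

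Of Zfp peaks, 235 matched one to one, and most had the lower value in the cKO. The median was 1.71 in the WT and 1.69 in the cKO, and the median of the differences, cKO minus WT, was -0.15, against 0.042 in other genes. The cKO value was the lower at 142 of 235 peaks, 60.4% (53.9 to 66.7), where 45.2% of all one-to-one peaks were lower. Shares were alike with the KRAB pattern, at 61.5%, and without, at 58.8%. They were 59.0% in 3′ UTRs against 42.9% in other genes, 64.3% in exonic sequence against 48.7%, and 57.1% in 5′ UTRs against 57.6%, so that 5′ UTR peaks did not stand apart.

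In the authors' deposited table of differential peaks, which lists only peaks with a p below 0.05, Zfp genes had 227 peaks, of which 69 were higher and 158 lower in the cKO. The lower share by the authors' deposited table was thus 69.6% (63.2 to 75.5) in Zfp genes, while 51.1% of all listed peaks were lower and 48.9% higher. With an adjusted p under 0.05, the authors' deposited table held 32 higher and 88 lower Zfp peaks, so that 73.3% were lower, where 54.3% of all such peaks were lower and 45.7% higher. As shares of the listed peaks these were 14.1% higher and 38.8% lower by the authors' deposited table, against 24.4% and 28.9% of all listed peaks. A difference of at least 1 on the log2 scale besides was met by 29 higher and 29 lower Zfp peaks by the authors' deposited table, where 57% of all such peaks were higher and 43% lower. Each of these is 12.8% (8.73 to 17.8) of the Zfp peaks listed by the authors' deposited table, against 9.17% and 6.93% of all. Large lower differences thus made up a larger share of Zfp peaks than of all listed peaks. For large higher differences the interval includes the 9.17% of all listed peaks. The small differences were mostly lower. The part of the low input level of Zfp genes in these shares was not tested.

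Lower peaks had more enrichment in the WT than higher peaks. In the authors' deposited table the median WT log2 IP over input of Zfp differential peaks was 2.23 and the median cKO value 1.89, against 1.29 and 1.53 in other genes. The 158 lower peaks had a WT median of 2.65 and a cKO median of 1.92 by the authors' deposited table, with a median difference of -0.66. The 69 higher peaks had 0.30 and 1.86 by the authors' deposited table, with a median difference of 1.63. Peaks were sorted here by the sign of cKO minus WT, so a gap in their WT values follows in part from the sorting. The cKO medians of the 2 groups were close, and lower peaks mostly stayed enriched in the cKO. In other genes, higher peaks had a WT median of 0.73 and a cKO median of 1.60 by the authors' deposited table. Lower peaks of other genes had 2.11 and 1.29 by the authors' deposited table. The IP value was below the input value in the WT at 21 peaks and in the cKO at 19 by the authors' deposited table.

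**Figure D4:**
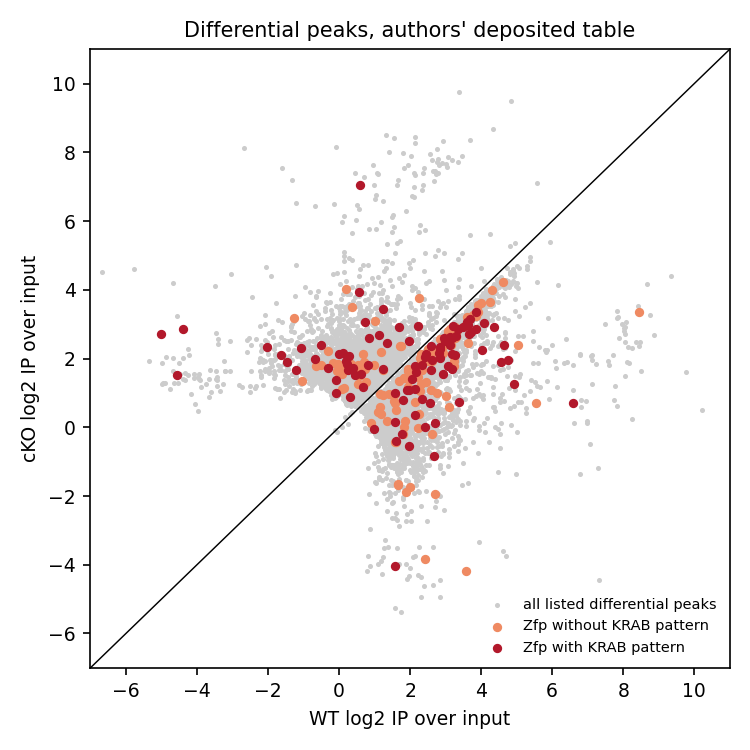
Log2 IP over input in the WT (x axis) and the cKO (y axis) at each listed differential peak, from the authors' deposited table; grey points are all 10355 listed peaks, coloured points the 227 of Zfp genes, and the line marks equal values. Many Zfp points lie just under the line at WT values above 2, while the higher Zfp peaks sit mostly at WT values below 1.

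The lower share was highest among the strongest peaks, both in Zfp genes and in other genes, and Zfp peaks were concentrated there. Listed peaks were split into 5 equal classes by the mean of the WT and cKO log2 values taken from the authors' deposited table, and 41% of Zfp peaks fell into the strongest, against 19.5% of the peaks of other genes. In that class 86 of 93 Zfp peaks were lower by the authors' deposited table, 92.5% (85.1 to 96.9), against 85.2% (83.6 to 86.8) in other genes. In the fourth class the shares by the authors' deposited table were 75.6% (59.7 to 87.6) and 57.7%, and in the third 56.5% (34.5 to 76.8) and 28.4%. In the weakest and the second weakest class they were 43.8% and 36.8% in Zfp genes, and 45.5% and 37.9% in other genes, by the authors' deposited table, so that the share of other genes fell over the 3 weaker classes before it rose. The 2 weakest classes of Zfp genes thus had shares close to the others, and in the 3 stronger ones their share was higher. At one-to-one peaks the shares in the strongest class were 80.5% (70.6 to 88.2) and 77.8%, and in the fourth 63.0% (47.5 to 76.8) and 50.5%, so that these intervals reached the other genes' values.

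**Figure D5:**
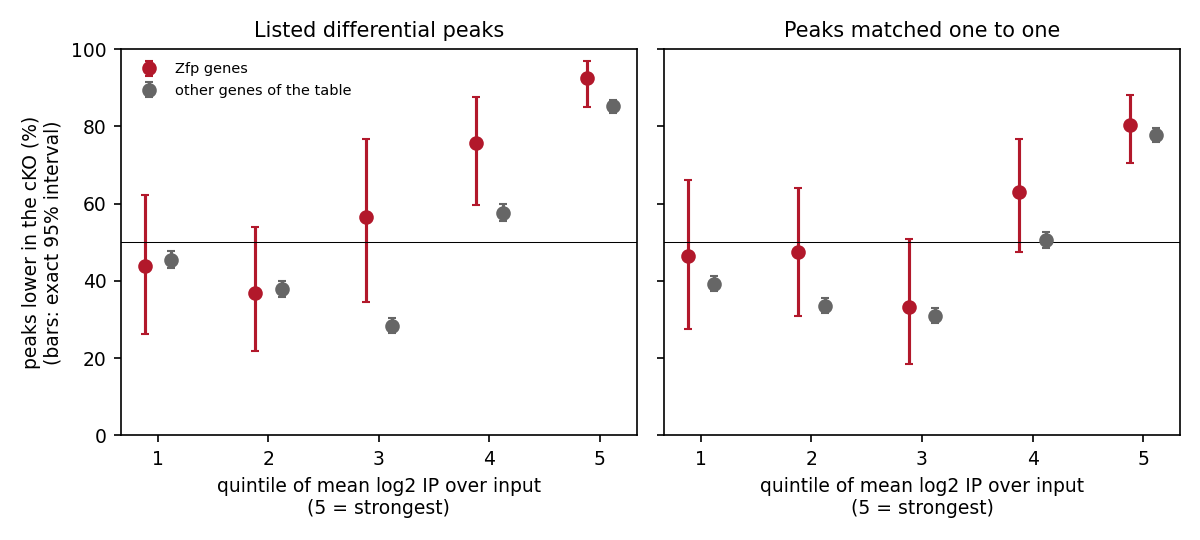
Share of peaks lower in the cKO (y axis, percent; bars are exact 95% intervals for counting error) by class of mean log2 IP over input (x axis, 5 is strongest), for the authors' listed differential peaks (left) and peaks matched one to one (right). Zfp genes (red) and other genes (grey) both have their highest share in the strongest class, 92.5% and 85.2% on the left and 80.5% and 77.8% on the right; on the left, other genes fall from 45.5% to 28.4% over the 3 weaker classes.

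By region, 90 of 138 Zfp differential peaks in 3′ UTRs were lower by the authors' deposited table, 65.2% (56.6 to 73.1), against 48.2% in other genes. In exonic sequence 41 of 50 were lower by the authors' deposited table, 82% (68.6 to 91.4), against 57.6%, and in 5′ UTRs 21 of 28, or 75%, against 62.5%. At an adjusted p below 0.05, 12 of 18 in 5′ UTRs were lower by the authors' deposited table, 66.7%, against 71.4%, so that there the order was the opposite. Of 10 intronic ones 5 were lower by the authors' deposited table, or 50%, against 36.5%. The lower share was 63.3% (52.9 to 72.8) with the KRAB pattern and 73.8% (65.2 to 81.2) without by the authors' deposited table, with overlapping intervals. It was above that of other genes in each of the 4 ranges of input level by the authors' deposited table. Below 1 FPKM it was 73.5% against 52.7%, and from 5 FPKM upward 74.2% against 46.2%, by the authors' deposited table. From 1 to 2 FPKM it was 64.2% (49.8 to 76.9) against 55.7% by the authors' deposited table. From 2 to 5 FPKM it was 68% (56.2 to 78.3) against 56.9% by the authors' deposited table. In these 2 middle ranges the intervals reached the other genes' values.

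Counted by gene, 62.4% of the Zfp genes had only lower peaks by the authors' deposited table, 23.0% only higher ones and 14.5% both, against 42.9%, 42.5% and 14.6% of the other genes. Input levels differed little between these groups of genes. Genes with only lower peaks had a median input difference of 0.025 on the log2(FPKM + 1) scale and those with only higher peaks -0.083, against 0.0065 and -0.051 in the other genes. Among the 24 Zfp genes with peaks in both directions, the strongest listed peak by mean log2 was a lower one in 20, 83.3% (62.6 to 95.3), against 63.9% of 1057 such other genes, by the authors' deposited table. This interval reached the other genes' value.

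Among the abundant Zfp genes, strong 3′ UTR peaks were lower in the cKO by a modest amount. Zfp91 had the smallest adjusted p, 5.17e-31 by the authors' deposited table, at a peak holding its stop codon that fell from 3.84 to 3.24 on the log2 scale. A second peak of Zfp91, in the 5′ UTR, fell from 1.69 to 1.36 (adjusted p 0.00039 by the authors' deposited table). The peak of Zfp655 fell from 2.80 to 2.15 (adjusted p 3.26e-13 by the authors' deposited table). The peak at the stop codon fell from 3.27 to 2.93 in Zfp292, a tumour suppressor in several cancers (adjusted p 7.97e-11 by the authors' deposited table). It fell from 2.44 to 2.03 in Zfp217 (adjusted p 2.26e-07), from 2.59 to 2.17 in Zfp703 (5.81e-07) and from 3.16 to 2.76 in Zfp281 (5.38e-06) by the authors' deposited table. Apart from the second peak of Zfp91, all of these stayed above 2 in both genotypes.

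In the KRAB-pattern genes Zfp809, Zfp871, Zfp945 and Zfp445, the strongest listed peak was lower in the cKO. Zfp809, which brings TRIM28 to retroviral DNA, fell from 3.69 to 3.15 at its stop codon (adjusted p 0.0188 by the authors' deposited table). Zfp871 fell from 3.21 to 2.93 (adjusted p 0.000122) and Zfp945 from 3.58 to 2.97 (0.000751) by the authors' deposited table. Zfp445 had 3 listed peaks by the authors' deposited table, of which a weak 3′ UTR peak rose from 0.30 to 0.89 (adjusted p 0.0115). Its strongest, in exonic sequence, had 2.45 and 2.15 with an adjusted p of 0.103 by the authors' deposited table.

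Zfp genes that act on RNA or chromatin without the KRAB pattern were mixed. In Zfp638, which works with the HUSH silencing complex, 2 exonic peaks fell, from 2.36 to 1.99 (adjusted p 0.00511) and from 1.17 to 0.39 (0.0158), by the authors' deposited table. In Zfp318, which controls the choice between IgM and IgD transcripts in B cells, the stop codon peak fell from 2.61 to 1.92 (adjusted p 0.0023 by the authors' deposited table). In Zfp106 an exonic peak fell from 1.23 to 0.95 (adjusted p 0.0377 by the authors' deposited table). In Zfp622, a factor of 60S ribosome maturation, the stop codon peak rose from 0.98 to 1.81 (adjusted p 0.000154) while an exonic peak fell from 1.14 to 0.58 (0.0201) by the authors' deposited table. Zfp326 had 3.99 and 3.61 (adjusted p 0.0587), and Zfp346, which binds double-stranded RNA, 0.72 and 1.69 (0.116), by the authors' deposited table. Zfp410, known as an activator of Chd4, had -0.66 and 1.78 at a 3′ UTR peak (adjusted p 0.0595 by the authors' deposited table).

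Several genes had a strong lower peak and a weak higher peak elsewhere in the same gene. In Zfp740 the stop codon peak fell from 3.91 to 3.55 (adjusted p 0.000268) and a later 3′ UTR peak rose from 0.55 to 1.26 (0.00149) by the authors' deposited table. In Zfp131 the main peak fell from 3.77 to 3.26 (adjusted p 0.000907) and a second rose from 1.02 to 3.10 (0.0267) by the authors' deposited table. In Zfp609 the 5′ UTR peak fell from 2.32 to 2.13 (adjusted p 0.0449) and a 3′ UTR peak rose from 0.088 to 1.54 (0.00163) by the authors' deposited table. Zfp652, with 3 listed peaks, had 1 that fell from 1.93 to 1.68 (adjusted p 0.000268) and 1 that rose from 0.071 to 1.12 (0.0431) by the authors' deposited table.

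The largest rises at an adjusted p below 0.05, in genes with a mean of at least 1 FPKM, started below the input level in 5 of 6 cases. Zfp960 went from -5.01 to 2.70 (adjusted p 0.0058) and Zfp709 from -4.55 to 1.51 (0.0398) by the authors' deposited table. Zfp451 went from -1.28 to 3.17 (adjusted p 0.00767), Zfp597 from -1.65 to 2.10 (0.00337) and Zfp688, in an intron, from -1.46 to 1.89 (0.0116) by the authors' deposited table. Zfp993 went from 0.55 to 3.95 (adjusted p 1.29e-06 by the authors' deposited table). Zfp960 shares 83.8% of its 50-base words with Zfp97 and other genes and Zfp993 shares 85.3%, most with Zfp991, so that reads of these 2 may belong to a near-identical copy. In 3 of the other genes the main peak moved the other way: it fell from 4.24 to 3.65 in Zfp451 (adjusted p 0.00822), from 3.72 to 2.77 in Zfp597 (2.3e-07) and from 3.59 to 3.06 in Zfp709 (0.0115) by the authors' deposited table.

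Of the 6 largest falls by the same rule, 5 ended below the input level. Zfp707 went from 1.88 to -1.88 (adjusted p 0.0213), Zfp329 from 1.65 to -1.65 (0.0116) and Zfp160 from 1.96 to -0.56 (0.016) by the authors' deposited table. Zfp608 went from 1.81 to -0.20 (adjusted p 0.0398), Zfp983 from 1.60 to -0.41 (0.0317) and Zfp629 from 2.59 to 1.09 (0.00885) by the authors' deposited table. Zfp160 also had a 3′ UTR peak that rose from 1.12 to 2.67 (adjusted p 0.0328 by the authors' deposited table), opposite to its 5′ UTR peak.

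At least 3 listed differential peaks were found in 14 of 165 Zfp genes and in 563 of 7234 other genes of the table. Of the 14, 12 had no KRAB pattern. Zfp174 and Zfp462 had 4 each. All 4 of Zfp174 were lower by the authors' deposited table, led by the stop codon peak from 3.64 to 2.46 (adjusted p 0.016), while its input was 0.418 FPKM in the WT and 0.839 in the cKO. Zfp174 lies at chr16:3847268-3858880 on the plus strand and overlaps Zfp597 at chr16:3858321-3884561 on the minus strand, and whether counting used the strand is not stated in the sources used here. Zfp462 had 1 peak that rose, from -0.31 to 2.22 (adjusted p 0.00936), and 3 lower ones with adjusted p-values from 0.102 to 0.166 by the authors' deposited table. Zfp473, at 0.108 FPKM in the WT input and 0.105 in the cKO input, had the widest gap, with 1 peak from 3.59 to -4.17 (adjusted p 0.00898) and another at 0.38 and 3.50 (0.0607) by the authors' deposited table. Zfp697 had 3 intronic peaks that all fell, the strongest from 3.01 to 0.90 (adjusted p 0.000619 by the authors' deposited table).

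Zfp genes lie in clusters, and 59 of the 165 had another within 100000 bases, 45 of them with the KRAB pattern. Chromosome 7 held 40 and chromosome 17 held 21. Clustered genes had 58 of 77 differential peaks lower by the authors' deposited table, 75.3%, and the other 106 genes 100 of 150, 66.7%. On chromosome 7 the share was 69.6% and on chromosome 17 it was 63% by the authors' deposited table, so that lower peaks were the majority on both.

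Other zinc finger families and the partners of KRAB proteins were set beside them. Of 41 differential peaks in 25 Zbtb genes, which join a BTB domain to zinc fingers, 27 were lower by the authors' deposited table. Of 14 in 11 Zscan and Zkscan genes, which carry a SCAN domain, 10 were. Lower peaks were thus the majority in these families too, so that a lower majority was not particular to Zfp genes. The Zbtb median log2 IP over input in the WT list was 1.45 and that of Zscan and Zkscan genes 1.49, close to the 1.47 of Zfp genes. Of 31 listed partners of KRAB proteins and H3K9 methylation genes, 19 occur in the table, with a WT median of 1.03. Their 29 differential peaks were 15 higher and 14 lower by the authors' deposited table, of which 4 and 7 had an adjusted p under 0.05. Setdb1 had 4.52 FPKM in the WT input and 5.32 in the cKO input, and Chd4 had 32.1 and 26.9. None of the 19 reached a 1.5-fold difference in the input at a mean of at least 1 FPKM.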

How the data were processed

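Deposited tables of 4 libraries (WT and cKO, m6A IP and input, 1 each) were used; titles and genotypes gave the groups. The submitters' processing notes name mm10 and edgeR, StringTie, ChIPseeker, HOMER, HISAT2 and fastp, without role or version. Per the file headers, the authors deposited a log2 IP over input with a p-value and adjusted p-value for each peak, the log2 difference between genotypes at differential peaks, and input FPKM per gene. Depth is unknown. Neither the peak caller nor strand use in counting is stated in the sources used here.

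Zfp genes, lists and comparisons were chosen with earlier results of these data known. Genes were named by rules on level, input difference, peak strength, number and size of differential peaks, and known role. Starts count from 0 in the tables and are given from 1. Overlaps (bedtools 2.31.1) needed the same strand and at least 1 bp. Positions, motifs, fingers, linkers and KRAB patterns came from GENCODE M21 coding sequences, in place of the RefSeq proteins first planned. Copies were sought as shared 50-base words. Shares have exact Clopper-Pearson 95% intervals (SciPy 1.17.1). Input used log2(FPKM + 1) at a mean of at least 1 FPKM. Scripts were tested on simulated data.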

Additional observations from a re-analysis of the deposited data

How the results depend on the processing

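Of 50 recomputed values, 35 stayed within their interval, or within 1.5 times for a count, and 15 moved further. The median log2 IP over input of Zfp peaks at a mean of at least 1 FPKM was 1.28 in the WT and 1.41 in the cKO. With GGACT alone 37.9% of WT and 36.2% of cKO peaks held a motif, and among peaks at a log2 of at least 1 the shares with any of the 3 motifs were 67.7% and 67.6%. The WT overlap at 50% of both peaks was 47.3%. Differential peaks higher and lower were 32 and 88 at an adjusted p below 0.05, and 29 and 29 with a log2 difference of at least 1 as well, in the authors' deposited table. The median input difference, -0.0019 in the report, lay on the other side of 0 in 3 settings: 0.051 at a mean of at least 5 FPKM, 0.018 after subtracting the median of all genes and 0.011 without near-identical copies and noncoding genes. With a pseudocount of 0.1, 1 gene was at least 1.5-fold higher and 3 were lower in the cKO input, and at a mean of at least 5 FPKM 0 were lower. Leaving out the 14 genes that share over 20% of their 50-base words with another gene and the 2 noncoding ones left 61 higher and 149 lower ones in the authors' deposited table. No paired analysis was possible because each group has 1 library. Depth per library and the scaling of IP to input are not known here, so a change shared by all sites may not show, and the splits by level, finger number, strength and neighbourhood were chosen after seeing the data.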
